A study of Mus musculus with 8 samples.

Results

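The comparison of spaceflight with ground culture used all 8 libraries of the series, 4 from cultures grown in space and 4 from cultures grown on the ground. Each space library was matched to the ground library of the same genotype and the same culture duration, which gave 4 matched pairs. The cells were mouse embryonic stem cells (mESCs) of 2 genotypes, wild type (R9wt) and Rad9-/- (R9del), and each genotype was cultured for 1 day (D1) or 5 days (D5). The conditions are therefore R9wt D1, R9wt D5, R9del D1 and R9del D5, in space and on the ground, and 4 values given for a gene always follow this order. The space cultures grew in a sealed payload on a recoverable satellite, and the ground cultures grew in a payload of the same design that stayed on Earth. The ground payload lacked microgravity, space radiation and the vibration of launch and return. Neither payload controlled oxygen or carbon dioxide, and all cells were fixed in RNAlater inside the culture devices and then kept cold. D1 and D5 devices stood on separate temperature controllers and were seeded with different cell numbers. Each condition is 1 culture and 1 library, and all 4 space cultures shared 1 flight, so an effect of that payload and an effect of spaceflight cannot be told apart. Whether space and ground RNA was extracted, made into libraries and sequenced together is not given in the sources used here. If these steps were split by location, their effect cannot be told apart from that of spaceflight either. The p-values measure the spread between these cultures, which differ in genotype and duration.

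Mouse embryonic stem cells divide rapidly and hold the naive pluripotent state, in which the factors Oct4 (encoded by Pou5f1), Sox2 and Nanog keep lineage genes low. Leukaemia inhibitory factor (LIF), acting through Stat3, and bone morphogenetic protein (BMP), acting through Id genes, sustain this state in culture, whereas FGF signalling through ERK moves cells towards differentiation. Rad9 is part of the ring-shaped clamp that loads onto damaged DNA and activates the checkpoint kinases, so the R9del cells lack a damage sensor that the R9wt cells have.

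A gene is said to have risen or fallen in space when its Benjamini-Hochberg adjusted p was under 0.05 in edgeR's quasi-likelihood test of the 4 space libraries against the 4 ground libraries, and it is then said to have passed. Levels are in CPM, read counts scaled to a common library total with edgeR's TMM factors, fold changes are on the log2 scale, and the error after ± is the standard error of the fitted log2 fold change (n = 4 libraries in each group). Of 20473 genes tested, 243 rose (1.19%) and 1051 fell (5.13%). All 243 that rose were higher in space in each of the 4 pairs, and 1049 of the 1051 that fell (5.12% of all tested) were lower in each. Together 6.32% passed, and with a fold of at least 2 added, 0.581% rose and 4.83% fell. Without regard to the test, 3362 genes (16.4%) were higher and 3481 (17%) lower in all 4 pairs, and all space libraries lay above all ground libraries for 5.69% of genes and below them for 8.9%. The median size of the change was 1.00 among genes that rose and 2.14 among genes that fell, and 242 genes fell by at least 3 on the log2 scale against 8 that rose by as much. The number that rose depended on single libraries, since 31 of the 243 kept their call with each library left out in turn, whereas 680 of the 1051 that fell did. A fit with the matched pair as a block called 443 higher and 1335 lower of the 20473 genes. DESeq2's Wald test called 805 and 1578 of them, and edgeR's exact test 456 and 1341. With the GC correction described below, 369 were called higher and 729 lower of 17505 annotated genes. List counts given for these settings are to be set against these totals, and the shares of 1.19% and 5.13% belong to the quasi-likelihood test alone. A call is said to hold in each setting when it was kept with each library left out, with this block, in DESeq2's Wald test, under 2 other scalings and after the correction for GC content described below.

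Falls were most frequent among short genes with GC-rich exons, so coding stretches of the 3 that fell most and the 3 that rose most among well expressed genes are shown. Each is the most GC-rich run of 100 bases within 1 coding exon, read from the mm9 genome on the gene's own strand, and capitals mark unbroken runs of at least 6 G or C bases. Chchd10 encodes a mitochondrial intermembrane protein, Pgp a phosphoglycolate phosphatase and Zfp444 a zinc finger protein, and these fell. Abl2 encodes a tyrosine kinase that acts on the actin cytoskeleton, Zdhhc9 a palmitoyltransferase and Vcl the focal adhesion protein vinculin, and these rose.
Chchd10 (fell; chr10:75398983-75399082, plus strand): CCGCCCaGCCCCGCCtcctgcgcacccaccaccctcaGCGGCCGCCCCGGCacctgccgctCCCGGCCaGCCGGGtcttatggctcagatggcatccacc
Pgp (fell; chr17:24607535-24607634, plus strand): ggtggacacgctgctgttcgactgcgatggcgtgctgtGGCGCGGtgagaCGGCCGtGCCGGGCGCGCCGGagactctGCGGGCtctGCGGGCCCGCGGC
Zfp444 (fell; chr7:6135560-6135659, plus strand): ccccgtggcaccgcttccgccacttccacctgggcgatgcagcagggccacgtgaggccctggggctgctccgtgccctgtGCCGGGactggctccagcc
Abl2 (rose; chr1:158489194-158489293, plus strand): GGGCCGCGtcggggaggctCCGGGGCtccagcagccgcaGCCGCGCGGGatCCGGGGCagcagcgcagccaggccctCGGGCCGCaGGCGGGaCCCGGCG
Zdhhc9 (rose; chrX:45559871-45559970, minus strand): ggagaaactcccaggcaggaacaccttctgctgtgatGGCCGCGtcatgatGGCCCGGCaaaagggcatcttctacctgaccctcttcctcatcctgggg
Vcl (rose; chr14:21748811-21748910, plus strand): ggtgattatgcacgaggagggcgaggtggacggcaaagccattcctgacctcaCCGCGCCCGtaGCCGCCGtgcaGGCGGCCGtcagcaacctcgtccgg
The GC content of these stretches was 76%, 76% and 74% in the genes that fell, and 84%, 59% and 68% in those that rose. These are 6 chosen genes, and the values over all genes follow. The exons of Abl2, Zdhhc9 and Vcl summed to 10664, 6733 and 5229 nt, against 939, 1027 and 3421 nt in Chchd10, Pgp and Zfp444.

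Across all genes with an annotation, a fall in space was most frequent among short genes with a GC-rich exon window. The most GC-rich 200-nt window of the exons had a median GC content of 76% in the 978 annotated genes that fell, 67% in the 217 that rose and 66.5% in the 16310 that did not pass. Of short genes, with under 1500 nt of exon, and a window of 75 to 80% GC, 55 of 114 fell (48.2%), and of those with 1500 to 3000 nt, 231 of 563 fell (41.0%). Below 70% GC, at any length, 143 genes rose and 114 fell among 10515. The share of all counts on genes with a window of 70 to 80% GC was 30.2 to 30.9% in the space libraries and 33.8 to 34.4% in the ground libraries, and these ranges did not overlap. With each library's trend on this window removed, 689 of the 978 annotated genes that fell and 135 of the 217 that rose kept their call. This correction had no term for exon length. For windows of 75 to 80% GC the median log2 fold change was -2.38 under 1500 nt and -0.18 at 3000 nt or more. A trend that differs with length was therefore not removed, and short GC-rich genes could keep their calls for that reason. The part of exon length in the falls was not tested, and that of base composition was not tested beyond this correction. Where the correction ended the call of a gene named below, or changed by over 1.5 times the counts of a list described below, the corrected value is given.

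**Figure D1:**
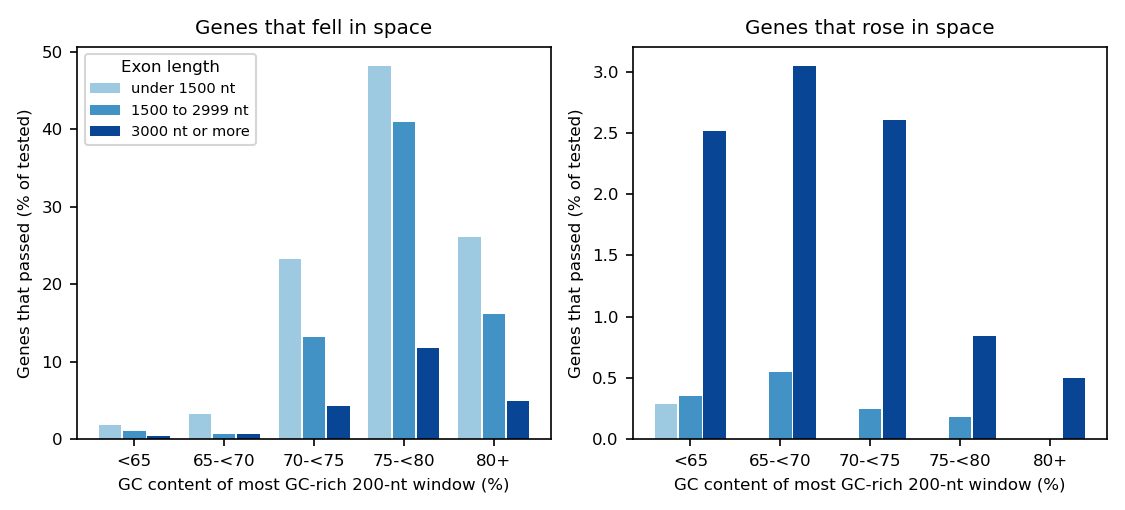
Share of tested genes that fell (left) and rose (right) in space, in percent on each vertical axis, by the GC content of the most GC-rich 200-nt exon window (horizontal axis) and by summed exon length (bar colour). The share that fell peaks at 48.2% for genes under 1500 nt with a window of 75 to 80% GC, while genes of 3000 nt or more hold most of those that rose; the axes of the panels differ in scale.

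The libraries held 58238440 to 96416907 counts, so 3 counts, taken as the upper limit for a gene with none, correspond to 0.0311 to 0.0515 CPM, which covers counting error only. Rad9a, the deleted gene, stood at 90.9, 70.6, 20.9 and 27.5 CPM in space and 91.5, 83.8, 23.6 and 28.1 CPM on the ground. It was lower in every R9del library than in every R9wt library, as the labels say. Reads of it remained in the R9del libraries, although 0% of its 50-nt stretches occur elsewhere. Where in the gene these reads lie was not tested. The log2 fold change of Rad9a between space and ground was -0.11 ± 0.57 (adjusted p = 0.948). All 13 embryonic stem cell markers were detected, and their summed level of 6535 to 8477 CPM in space overlapped the 6792 to 9487 CPM on the ground. Fibroblast or feeder markers summed to 34.2 to 54.6 CPM in space and 26.8 to 59.7 CPM on the ground, blood markers to 1.86 to 6.40 and 1.75 to 3.86 CPM, endothelial markers to 5.75 to 32.2 and 9.15 to 13.2 CPM, and muscle markers to 8.06 to 20.6 and 3.85 to 25.5 CPM. Of the 16 markers of these 4 cell types that were tested, 0 passed edgeR's quasi-likelihood test, 2 were at an unadjusted p under 0.05, 0 passed DESeq2's Wald test and 1 passed with the pair as a block, and the blood marker Hbb-b1, with 46.4% of its 50-nt stretches elsewhere, had 0 counts in every library. In such bulk libraries, fewer cells of a type and less RNA per cell cannot be told apart.

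Chchd10 stood at 11.6, 9.13, 6.62 and 10.4 CPM in space and 733, 658, 277 and 368 CPM on the ground. Every ground library was far above every space library, and the log2 fold change was -5.76 ± 0.40 (adjusted p = 5.4e-05), or 54.1-fold lower in space. Pgp had 2.58, 3.37, 2.47 and 3.49 CPM in space against 186, 120.3, 111 and 126 CPM on the ground, and the fitted log2 fold change was -5.51 ± 0.28 (adjusted p = 2.66e-05). For Zfp444 the values were 2.3, 3.27, 0.915 and 1.11 CPM in space and 71.2, 65.6, 37.2 and 43.2 CPM on the ground, where the R9wt libraries were the higher ones in both places, and the change was -4.84 ± 0.49 (adjusted p = 0.000276). The other leading falls came from several functions. Sap30, a subunit of the Sin3 histone deacetylase complex, changed by -4.62 ± 0.25, and Med30, a subunit of the Mediator that links transcription factors to RNA polymerase, by -4.60 ± 0.31. Cox5a, a subunit of cytochrome c oxidase, changed by -4.46 ± 0.35, Mrps24, a protein of the small mitochondrial ribosomal subunit, by -4.43 ± 0.33, and the mitochondrial membrane protein gene Mpv17l2 by -4.42 ± 0.29. Ap3s1, the sigma subunit of a vesicle adaptor, changed by -4.38 ± 0.33, the Golgi protein gene Yipf4 by -4.58 ± 0.36, Tm2d1 by -4.41 ± 0.47 and Fam98c by -4.34 ± 0.24. Adjusted p-values of these 12 lay between 2.66e-05 and 0.00034, and in none of them did the groups overlap. They kept their calls with each library left out and with the GC correction. Reads of Ap3s1 and Tm2d1 could have been assigned elsewhere, since 61.9% and 24.2% of their 50-nt stretches have copies in other places, and 56.2% of the exon bases of Fam98c and 38.7% of those of Cox5a overlap another gene, with strand handling not given in the sources used here.

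Abl2 led the rises, with 69.4, 36.2, 39.4 and 37.7 CPM in space and 15.9, 9.2, 10.2 and 15.8 CPM on the ground. The R9wt D1 space library was the highest of the 8, no space library reached down to the ground range, and the log2 fold change was 1.84 ± 0.31 (adjusted p = 0.00593), or 3.58-fold. Vcl stood at 45.5, 42, 54.3 and 37.1 CPM in space and 14.7, 14.9, 16.2 and 9.91 CPM on the ground, which is a log2 fold change of 1.68 ± 0.24 (adjusted p = 0.00228), although 39.9% of its exon bases overlap another gene. Zdhhc9 showed 15.8, 26, 12.7 and 16.2 CPM in space and 4.89, 5.84, 5.14 and 4.27 CPM on the ground, a log2 fold change of 1.81 ± 0.30 (adjusted p = 0.00568). Vps8, part of a complex that tethers endosomes, rose by 1.43 ± 0.26 (adjusted p = 0.00857), and Tnfrsf10b, a death receptor for the ligand TRAIL, by 1.39 ± 0.24 (adjusted p = 0.00671). These 5 kept their calls with each library left out and with the GC correction. The other 7 of the 12 leading genes did not keep them throughout. Of 49 actin, myosin and tubulin cytoskeleton genes, 0 rose and 1 fell (3 and 4 with the pair as a block, 1 and 1 with the GC correction). Of all genes 1.19% rose and 5.13% fell. In all 4 pairs 8 of the 49 were higher and 8 lower, against 16.4% and 17% of all genes. The median of the list was -0.11 (-0.24 to 0.05 with single libraries left out). Slc2a3, a glucose transporter that is highly expressed in these cells, stood at 13566, 10849.9, 5386 and 6608 CPM in space and 3921, 3008, 1902 and 2588 CPM on the ground, and all 4 space libraries were above all 4 ground libraries. Its log2 fold change of 1.67 ± 0.34 (adjusted p = 0.0162) lost the call without Space R9wt D5 or Ground R9del D5 (adjusted p up to 0.0628). Rnd3 had a log2 fold change of 1.496 ± 0.32 (adjusted p = 0.0201) and lost the call without Space R9del D5, Space R9wt D5, Space R9del D1, Ground R9del D5 or Ground R9wt D1 (up to 0.0748). Phactr4, a regulator of actin and phosphatase, had 1.41 ± 0.30 (adjusted p = 0.0211) and lost it without Space R9del D5, Space R9wt D5, Ground R9del D5, Ground R9del D1 or Ground R9wt D1 (up to 0.073). The glutamate transporter gene Slc1a1 (1.52 ± 0.35, adjusted p = 0.0315) kept its call without Space R9del D1 or Ground R9wt D5 and lost it without any other (up to 0.12), and Fam234b (1.56 ± 0.36, adjusted p = 0.0279) kept it without Space R9del D1 or Space R9del D5 and lost it without any other (up to 0.102). Ttc17 (1.62 ± 0.34, adjusted p = 0.0202) lost it without Space R9wt D5, Space R9wt D1, Ground R9del D5, Ground R9del D1 or Ground R9wt D1 (up to 0.0852). The pseudogene Rbpj-ps3 (1.56 ± 0.32, adjusted p = 0.0167), which shares 62.9% of its 50-nt stretches with other places in the genome, lost it without Space R9del D1, Ground R9del D5 or Ground R9wt D1 (up to 0.0629).

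**Figure D2:**
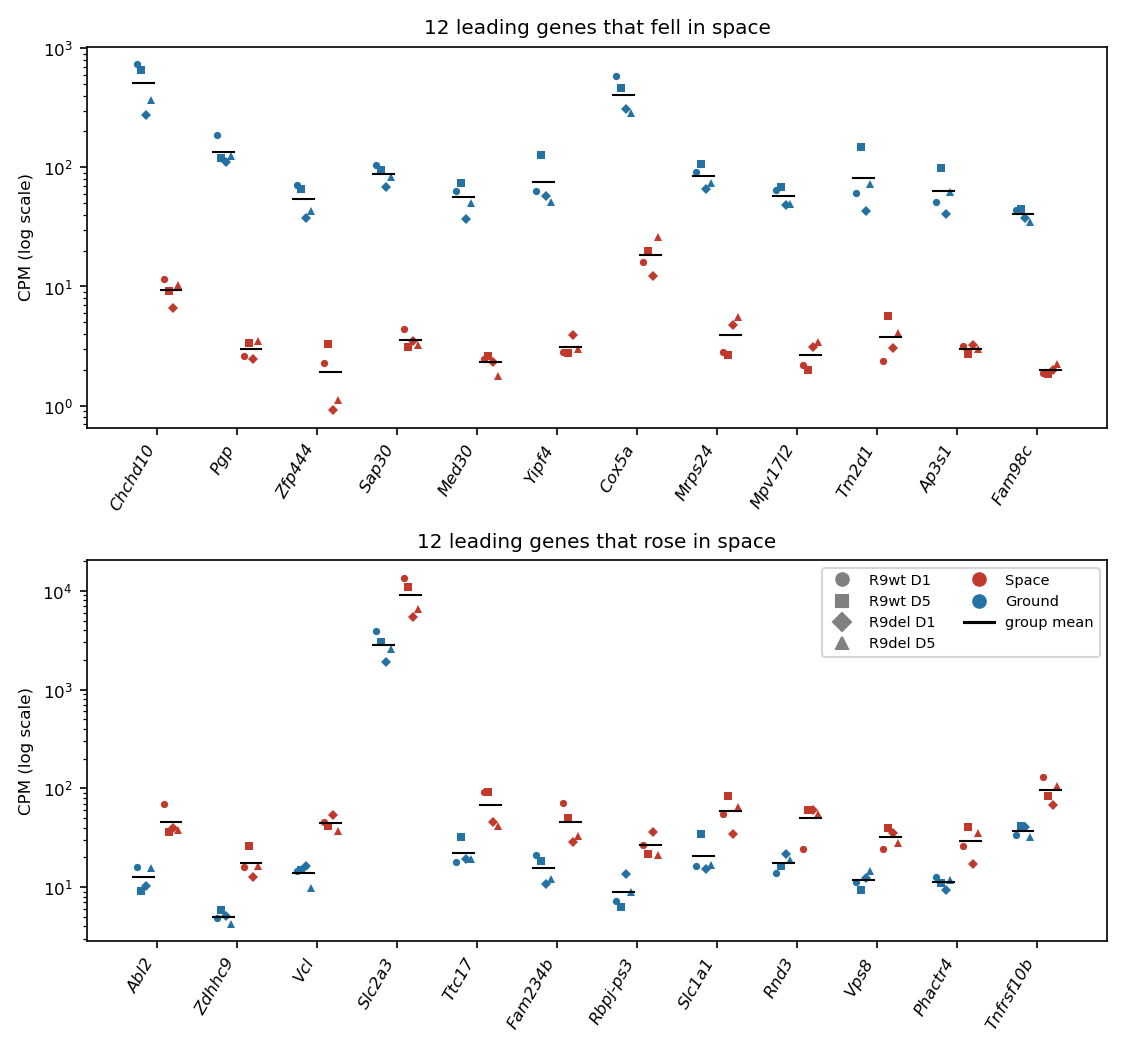
Levels in CPM (log axis) of the 12 leading genes that fell and the 12 that rose in space, with 1 point per library, blue for ground and red for space, shapes for genotype and duration, and a bar at each group's mean. In every gene shown the 4 space points lie on 1 side of their matched ground points, which the rule that chose these genes required. The log2 fold changes span -5.76 to -4.34 for the falls and 1.39 to 1.84 for the rises.

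Of 14 core pluripotency factors, 0 rose, 2 fell and 12 did not pass, where 1.19% of all genes rose and 5.13% fell. The median log2 fold change was 0.05, equal to the 0.05 of all genes tested, and it lay between -0.28 and 0.29 with single libraries left out. The pair medians were -0.998, 1.19, 0.09 and 0.07, so those of the R9wt pairs were far from 0 and of opposite sign. With the pair as a block 1 rose and 4 fell, and with the GC correction 2 rose and 0 fell. Pou5f1 stood at 991, 963, 1389 and 1573 CPM in space and 1767, 964, 1604 and 1419.9 CPM on the ground. These ranges overlapped, and the fitted log2 fold change was -0.23 ± 0.25 (adjusted p = 0.704). Nanog had 211, 646, 436 and 663 CPM in space and 396, 229.99, 278 and 333 CPM on the ground, higher in space in 3 of the 4 pairs, and the change was 0.66 ± 0.34 (adjusted p = 0.348), with 20.6% of its 50-nt stretches found elsewhere in the genome. Sox2 fell, with 86.1, 126, 96.3 and 117 CPM in space against 249, 147, 197 and 223 CPM on the ground. The groups did not overlap, and the fitted log2 fold change was -0.94 ± 0.22 (adjusted p = 0.0317), but the call was kept without Ground R9wt D5 and ended without any other library (adjusted p up to 0.0951), and the GC correction gave -0.47 (adjusted p = 0.254). Foxd3, a repressor that holds the stem cell state, changed by -2.48 ± 0.59 (adjusted p = 0.0335) from levels of 6.43, 7.39, 14.1 and 9.04 CPM on the ground. Its call ended without Space R9del D5, Space R9wt D5, Ground R9del D5, Ground R9del D1 or Ground R9wt D1 (up to 0.0966) and under the GC correction (adjusted p = 0.0645). Utf1, a chromatin factor of undifferentiated cells, was lower in space in all 4 pairs with a log2 fold change of -0.82 ± 0.23 (adjusted p = 0.0687), and it passed with the pair as a block (adjusted p = 0.027) and without Ground R9wt D5 (adjusted p = 0.0280).

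Of 20 genes of the naive state, 1 rose and 1 fell, against 1.19% and 5.13% of all genes, with the pair as a block 2 rose and 3 fell, and with the GC correction 1 rose and 0 fell. Their median of -0.14 changed sign under the GC correction (0.03) and lay between -0.24 and 0.02 with single libraries left out. Esrrb, an orphan nuclear receptor that sustains naive pluripotency, had 113, 91.5, 75.1 and 105 CPM in space and 46.7, 46.5, 35.4 and 39.2 CPM on the ground. All space libraries exceeded all ground libraries, the log2 fold change was 1.20 ± 0.20 (adjusted p = 0.00635), and the call held with each library left out and with the GC correction, which raised it to 1.75. Klf5, a Krüppel-like factor of the same network, moved the other way, from 269, 173, 668 and 650.5 CPM on the ground to 36.1, 59.5, 121 and 112 CPM in space. The R9del libraries were the higher ones in both places, and the log2 fold change of -2.42 ± 0.52 (adjusted p = 0.0219) lost its call without Space R9wt D5, Ground R9del D5 or Ground R9del D1 (up to 0.0762) and under the GC correction (adjusted p = 0.0606). Zfp42, the marker also called Rex1, varied widely between space libraries, at 85.6, 116, 857 and 211 CPM against 609, 218, 712 and 779.98 CPM on the ground, and the fitted log2 fold change was -0.87 ± 0.69 (adjusted p = 0.574), with 34.9% of its 50-nt stretches elsewhere. Without Space R9del D1, its highest space library, the change was -2.10 and passed (adjusted p = 0.0381). Of 15 formative and primed state genes, 12 genes of the 2-cell-like state and 20 methylation-silenced germline genes, 0 passed in edgeR's test, and with the pair as a block 2, 1 and 1 did. Among chromatin regulators, Mbd3, a subunit of the NuRD deacetylase complex, fell from 310.3, 128, 287 and 237 CPM on the ground to 46.9, 30.6, 56.3 and 36.2 CPM in space, which is a log2 fold change of -2.50 ± 0.32 (adjusted p = 0.00103). Pcgf6, a subunit of a variant Polycomb complex, fell from 92.1, 64.1, 78 and 99 to 25.7, 23.2, 22.9 and 21 CPM, a log2 fold change of -1.84 ± 0.21 (adjusted p = 0.000489). Neither gene's groups overlapped, and both kept the call in each setting. Of the 17 DNA methylation writers and erasers, a list that holds Mbd3, 2 rose (11.8%) and 1 fell (5.88%). Neither rise kept its call with each library left out or with the GC correction. Of the 31 Polycomb genes 0 rose and 2 fell (6.45%), where 1.19% and 5.13% of all genes did. With the pair as a block the lists had 4 and 2, and 1 and 3, and with the GC correction 0 and 1, and 0 and 1.

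Of 14 primitive streak and mesendoderm genes tested, 0 rose and 2 fell, where 1.19% and 5.13% of all genes did, and 6 were lower in all 4 pairs against 17% of all genes. With the pair as a block 3 of this list and 2 of the early neural list fell. Cdx1, a homeobox gene of the posterior embryo, had 0.654, 0.856, 0.386 and 0.582 CPM in space and 6.23, 7.22, 2.86 and 4.35 CPM on the ground, a log2 fold change of -3.06 ± 0.45 (adjusted p = 0.00274). Hhex, a homeobox gene of the anterior endoderm, stood at 2.52, 2.52, 2.43 and 2.41 CPM in space and 8.65, 7.12, 8.01 and 11.3 CPM on the ground, a log2 fold change of -1.82 ± 0.30 (adjusted p = 0.00476). For both, every ground library was above every space library, and the calls held in each setting. Sox17, an endoderm transcription factor, had 0.0608, 0.773, 0.143 and 0.12 CPM in space and 3.02, 5.96, 2.46 and 4.76 CPM on the ground, a log2 fold change of -3.88 ± 0.81 (adjusted p = 0.0187) that lost its call without Space R9del D5, Space R9del D1 or Ground R9del D5 (adjusted p up to 0.059). Hes5, a Notch target of neural progenitors, had 0.106, 0.0658, 0 and 0 CPM in space, with 0 counts in both R9del libraries, and 1.18, 1.64, 0.562 and 1.13 CPM on the ground. It was the 1 early neural gene of 11 tested that passed, at -4.65 ± 1.02 (adjusted p = 0.0231), lost its call without Space R9wt D5, Ground R9del D5 or Ground R9wt D1 (up to 0.0655), and shares 31.8% of its exon bases with another gene.

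Primitive endoderm genes had a positive median change. Of 19 tested, 0 rose and 1 (Sox17) fell, where 1.19% and 5.13% of all genes did. Of the 19, 7 were higher in space in all 4 pairs against 16.4% of all genes tested. The median log2 fold change was 1.25 (0.83 to 1.45 with single libraries left out). The pair medians were -0.10, 1.56, 0.39 and 1.76, so the R9wt D1 pair did not share it, and with the pair as a block 3 rose and 2 fell. Lamb1, a laminin chain that primitive endoderm secretes into the basement membrane, had 321, 673, 238 and 414 CPM in space and 175, 262, 137 and 117 CPM on the ground. It was higher in every pair, at 1.25 ± 0.36 (adjusted p = 0.0742), and passed with the pair as a block (adjusted p = 0.0137) and without Ground R9wt D5 (adjusted p = 0.0422). Of the 16 trophoblast genes, 0 rose and 1 fell (2 with the block, 0 with the GC correction), and of 21 Hox cluster genes and 28 imprinted genes 0 passed, whereas with the pair as a block 0 Hox genes and 4 imprinted genes did, and with the GC correction 1 imprinted gene rose and 1 fell.

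Of 14 LIF and Stat3 pathway genes, 1 rose and 3 fell, against 1.19% and 5.13% of all genes, and the 3 that fell are targets or feedback members rather than receptors. Socs3, the feedback inhibitor of the receptor complex, had 146, 188, 108 and 193 CPM in space and 488, 612, 308 and 391 CPM on the ground, a log2 fold change of -1.502 ± 0.27 (adjusted p = 0.00901). Pim3, a kinase gene that Stat3 induces, stood at 96.3, 72.3, 69.1 and 75.2 CPM in space and 541, 937, 354 and 369.6 CPM on the ground, which is a log2 fold change of -2.82 ± 0.33 (adjusted p = 0.000677). The R9wt D5 ground library was its highest, and in neither gene did the groups overlap. Junb, an AP-1 subunit, had 12.2, 19, 31.5 and 20.5 CPM in space and 85.5, 136, 188 and 162 CPM on the ground, which is a log2 fold change of -2.78 ± 0.35 (adjusted p = 0.000917). All 3 kept their calls in each setting, whereas the rise ended with single libraries left out and with the pair as a block. The list's median was 0.20, between 0.026 and 0.23 with single libraries left out and 0.46 with the GC correction.

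Immediate early genes are induced within minutes of growth factor or stress signals and have short-lived RNAs. Of 26 tested, 0 rose and 7 fell (26.9%), where 1.19% and 5.13% of all genes did. In all 4 pairs 4 were higher and 9 lower, where 16.4% and 17% of all genes were. The median of the list was 0.23, between -0.14 and 0.38 with single libraries left out, 0.12 with the GC correction and 0.03 with the pair as a block. With the pair as a block 1 rose and 7 fell. Dusp1, a phosphatase that switches off MAP kinases, had 18, 44.2, 19.6 and 11 CPM in space and 262, 223, 165 and 199.6 CPM on the ground, a log2 fold change of -3.20 ± 0.41 (adjusted p = 0.00113). Ier2, a nuclear protein induced by growth factors, had 20.9, 38, 59.9 and 75.7 CPM in space and 406, 185, 534 and 397 CPM on the ground, a log2 fold change of -2.97 ± 0.45 (adjusted p = 0.00296). In neither gene did the groups overlap, and the lowest ground value was well above the highest space value in both. Egr4, a zinc finger factor of the Egr family, had 0 counts in all space libraries and 0.456, 0.654, 0.669 and 0.697 CPM on the ground, which is at least 12.9-fold lower in space, taking 3 counts per library as the floor (adjusted p = 0.00222). Maff, a small Maf factor, changed by -2.76 ± 0.54 (adjusted p = 0.0136) and lost its call without Space R9del D5 (adjusted p = 0.0503). Of the 7, 5 kept their calls with each library left out and 6 with the GC correction. Of 7 nuclear and short-lived RNAs, a separate list, 0 passed in edgeR's test or with the pair as a block, but 3 were at an unadjusted p under 0.05, 2 passed DESeq2's Wald test and 1 passed edgeR's exact test. Their median log2 fold change was -0.59, 3 were lower in all 4 pairs and 0 higher, and the part of RNA handling or stability in the falls of immediate early genes was not tested.

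In the BMP pathway 0 genes rose and 2 fell of 21 (3 with the block), and the larger fall was in Bambi, a decoy receptor that dampens BMP and TGF-beta signals. It had 1.37, 1.93, 2.57 and 2.72 CPM in space and 54, 41.2, 35 and 26.4 CPM on the ground, a log2 fold change of -4.19 ± 0.35 (adjusted p = 9.77e-05) with no overlap between groups. Acvr2a, a receptor for activin and Nodal, changed by -1.51 ± 0.29 (adjusted p = 0.0126), or -0.96 with the GC correction (adjusted p = 0.103), and it was the 1 gene of 17 in the Nodal and Lefty list that passed, while with the GC correction 1 of that list rose and 0 fell. Of 51 Wnt pathway genes, 0 rose and 3 fell, a share near the 1.19% and 5.13% of all genes. With the pair as a block 1 rose and 9 fell, where 443 rose and 1335 fell of all 20473 genes. With the GC correction 2 rose, 2 fell and the median was 0.02, where 369 rose and 729 fell of 17505 genes. Csnk1a1, the kinase that primes beta-catenin for destruction, stood at 207, 202, 155 and 139.5 CPM in space and 449.7, 579.8, 363 and 438 CPM on the ground, a log2 fold change of -1.38 ± 0.22 (adjusted p = 0.00415). The ligand gene Wnt10a had 0.152, 0.28, 0.543 and 0.188 CPM in space and 1.91, 1.91, 6.94 and 5.29 CPM on the ground, a log2 fold change of -3.77 ± 0.65 (adjusted p = 0.00689). Both kept their calls in each setting.

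Of 30 FGF and ERK feedback genes, 0 rose and 3 fell, where 1.19% and 5.13% of all genes did, and with the pair as a block 1 rose and 4 fell. Map2k2, the kinase directly above ERK, had 12.8, 20.8, 27 and 27.1 CPM in space and 99.4, 48.5, 135 and 109.5 CPM on the ground, which is a log2 fold change of -2.16 ± 0.36 (adjusted p = 0.0052). Dusp4, a nuclear ERK phosphatase, changed by -1.95 ± 0.39 (adjusted p = 0.0144) and lost its call without Space R9wt D5 (adjusted p = 0.0517). Wwtr1, the Taz co-activator of the Hippo pathway, was the 1 gene of 24 in the Yap and Tead list that fell (2 others rose with the block and 1 with the GC correction), with 14.9, 24.5, 16.2 and 20.2 CPM in space and 40.6, 47.9, 38.6 and 49.6 CPM on the ground and a log2 fold change of -1.22 ± 0.23 (adjusted p = 0.012). Glial cell line-derived neurotrophic factor (GDNF) family genes were listed because the study named that pathway on these samples, so their count is not independent evidence. Of 7 tested, 0 rose and 3 fell. The ligand gene Nrtn had 0.152, 0.395, 0.272 and 0 CPM in space and 11.9, 21.8, 3.3 and 9.34 CPM on the ground, a log2 fold change of -5.81 ± 0.99 (adjusted p = 0.00612), and the ligand gene Artn had 0.517, 0.23, 0.243 and 0.0685 CPM in space and 2.44, 15.3, 2.81 and 5.1 CPM on the ground, a log2 fold change of -4.59 ± 0.82 (adjusted p = 0.00818). The R9wt D5 ground library was the highest for both. Of the Cdk5 signalling genes (8 tested), the sirtuins (7 tested), the Mef2 genes (8 tested) and the Myc network genes (13 tested), 0 passed in edgeR's test, and with the pair as a block 1 Myc network gene fell, whereas with the GC correction 0 of that list fell and 1 rose. The Cdk5 and sirtuin lists were taken up for the same reason as the GDNF list.

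**Figure D3:**
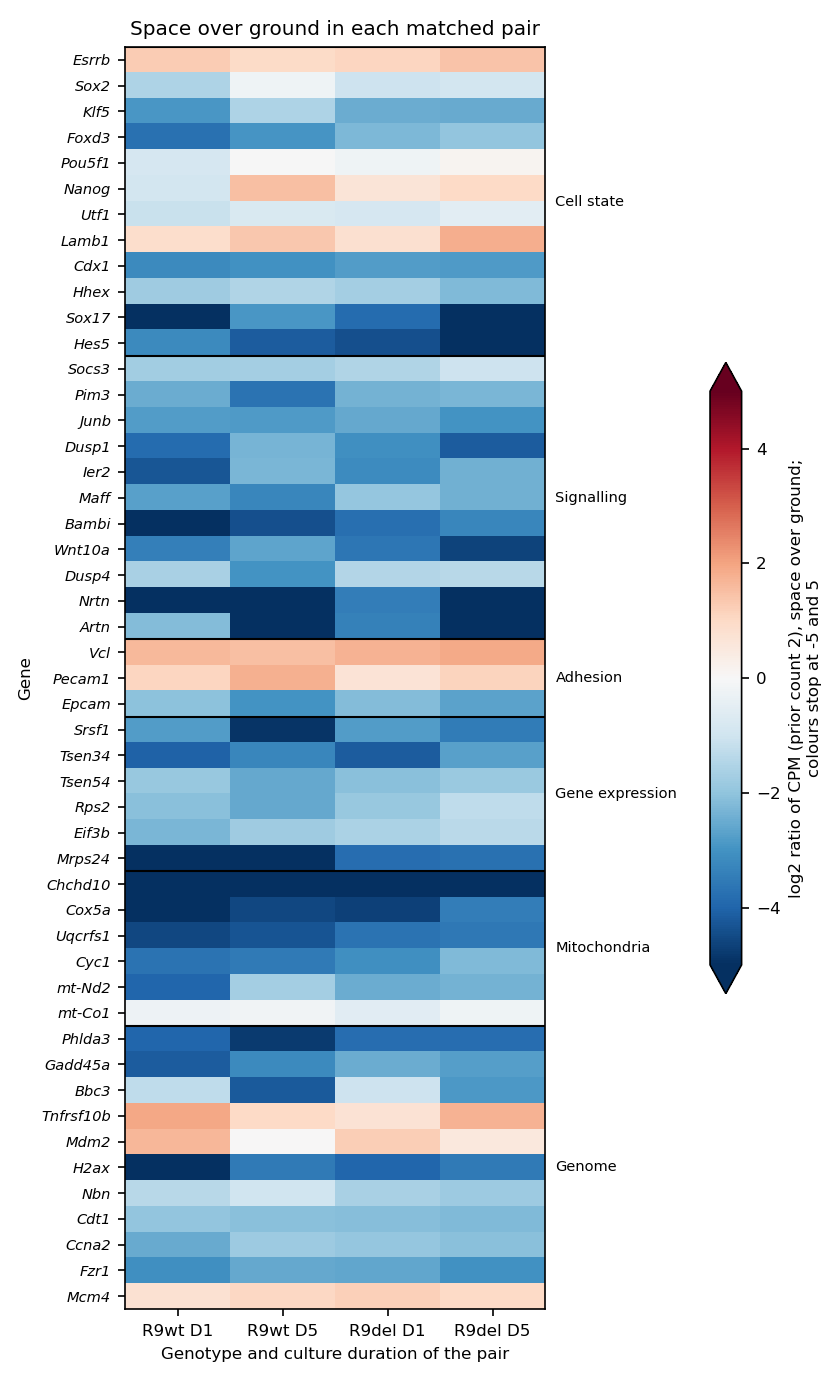
Log2 ratio of CPM, space over ground, in each of the 4 matched pairs (columns) for genes named in the text (rows), grouped by role, with blue for lower and red for higher in space and colours that stop at -5 and 5. Esrrb, Vcl, Pecam1, Tnfrsf10b and Mcm4 are red in every pair, and most other genes that passed are blue in every pair, while Nanog and Pou5f1 change sign between pairs.

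Many adhesion and matrix genes were higher in space in every pair, though few passed. Of 29 integrin and adhesion genes, 2 rose, 2 fell and 12 were higher in all 4 pairs, where of all genes 1.19% rose, 5.13% fell and 16.4% were higher in all 4. The median log2 fold change was 0.63 (0.41 to 0.69 with single libraries left out), with 5 that rose and 2 that fell with the pair as a block. Of 34 collagen and laminin genes, 1 rose and 0 fell, 11 were higher in all 4 pairs, the median was 0.38 (0.21 to 0.63 with single libraries left out), and 5 rose with the block. The exons of these lists are long, with medians of 5710 and 8323 nt, and the median over all genes that rose was 5031 nt against 3237 nt over those that did not pass. The part of gene length in these medians was not tested. With the GC correction 2 adhesion genes rose and 1 fell, and 2 collagen or laminin genes rose. The medians of 2 marker lists of other cell types were above 0 as well. The 9 endothelial genes of a wider list had a median of 0.91, with 8 above 0 and pair medians of 0.40, 1.20, 0.84 and 1.12, and the 9 fibroblast and feeder genes a median of 0.27 with pair medians of 0.23, 1.04, -0.24 and 1.00. Single libraries left out took these medians to between 0.45 and 1.17 and between 0.065 and 0.61. Their part in the adhesion, matrix and Lamb1 values was not tested. Pecam1, an adhesion receptor that naive stem cells share with endothelium, had 344, 449, 187 and 333 CPM in space and 161, 130.3, 118 and 153 CPM on the ground. Its groups did not overlap, and the fitted log2 fold change was 1.22 ± 0.26 (adjusted p = 0.0222), but the call was kept without Space R9del D1 and ended without any other library (up to 0.0783) or with the GC correction (adjusted p = 0.061). Epcam, an epithelial adhesion protein of undifferentiated cells, went the other way, with 68.1, 73.1, 72.2 and 51.9 CPM in space and 283, 588, 323 and 332 CPM on the ground, a log2 fold change of -2.52 ± 0.27 (adjusted p = 0.000384) that held in each setting. E-cadherin (Cdh1) was higher in space in every pair at 1185, 1037, 819 and 465 against 606, 553, 615 and 424 CPM, which is a log2 fold change of 0.67 ± 0.28 (adjusted p = 0.231). Fibronectin (Fn1) was higher in R9wt than in R9del at the same duration in both places, at 2204, 1324, 395 and 662 CPM in space and 872, 900.2, 199 and 397 CPM on the ground. The fold change was 0.95 ± 0.59 (adjusted p = 0.442) on the log2 scale, and it passed with the pair as a block (adjusted p = 0.0254), while without Space R9wt D1 the change was 0.39.

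The list medians of ribosomal protein and translation factor genes were below 0 in 3 of the 4 pairs, and some members fell strongly. Of 78 cytosolic ribosomal protein genes tested, 0 rose and 2 fell (1.19% and 5.13% of all genes did), 27 were lower in all 4 pairs and 0 higher (17% and 16.4% of all genes were), and the median log2 fold change was -0.33. Under the block 4 fell, and 4 did with the GC correction. The pair medians were -0.44, -0.55, -0.40 and 0.07, so the R9del D5 pair did not share it. Rps2 had 391.8, 369, 313 and 534 CPM in space and 1674, 2149.6, 1157 and 1298 CPM on the ground, a log2 fold change of -1.96 ± 0.26 (adjusted p = 0.00134), and 37.5% of its 50-nt stretches occur elsewhere in the genome. Of 75 mitochondrial ribosomal protein genes, 0 rose and 7 fell, 22 were lower in all 4 pairs and 0 higher, and the median was -0.34. Mrps26 changed by -3.26 ± 0.33 (adjusted p = 0.00027), Mrpl3 by -2.86 ± 0.29 (adjusted p = 0.000285) and Mrps34, whose exons overlap another gene over 77.8% of their bases, by -2.43 ± 0.34 (adjusted p = 0.00191). Of the 7, 6 kept their calls with each library left out and 7 with the GC correction. Of 47 translation initiation and elongation factor genes, 0 rose and 7 fell, with a median of -0.27. Eif3b, a scaffold subunit of the initiation factor that binds the small ribosomal subunit, had 104, 111, 163 and 147 CPM in space and 511, 377, 492 and 375 CPM on the ground. The groups were well apart, and the log2 fold change was -1.74 ± 0.22 (adjusted p = 0.000985). Eif5, the activator of GTP hydrolysis at start codons, changed by -1.78 ± 0.23 (adjusted p = 0.00129), with 21.7% of its 50-nt stretches elsewhere, Eif2b5, the catalytic subunit of the nucleotide exchange factor of eIF2, by -1.79 ± 0.23 (adjusted p = 0.00124) and Eif3j1, 75.8% of whose 50-nt stretches occur elsewhere, by -1.60 ± 0.21 (adjusted p = 0.00124).

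Of 41 SR and hnRNP splicing factor genes, 0 rose and 7 fell, against 1.19% and 5.13% of all genes, and the median was -0.33 (-0.43 to -0.22 with single libraries left out). In all 4 pairs 4 were higher and 13 lower, against 16.4% and 17% of all genes. Srsf1, the founding SR protein, had 16.1, 12.7, 18.8 and 18 CPM in space and 111, 379, 129 and 204 CPM on the ground. The ground libraries spread widely, with R9wt D5 the highest, yet all were above all space libraries, and the log2 fold change was -3.65 ± 0.41 (adjusted p = 0.000445). Srsf4 changed by -1.88 ± 0.22 (adjusted p = 0.000592), with 43.3% of its exon bases in another gene's exons, Clk2, a kinase that phosphorylates SR proteins, by -1.62 ± 0.20 (adjusted p = 0.00102) and Pspc1, a paraspeckle protein, by -1.85 ± 0.31 (adjusted p = 0.00525). The 7 kept their calls with each library left out, and 6 did with the GC correction. Of 21 genes of the Sm and LSm ring proteins of the spliceosome, 0 rose and 3 fell, 11 were lower in all 4 pairs, and Lsm2 changed by -1.997 ± 0.21 (adjusted p = 0.000306). The tRNA splicing genes encode the endonuclease that removes introns from precursor tRNAs and the ligase that joins the exons, and the list was taken up because the study named the pathway on these samples, so its count is not independent evidence. Of 11, 0 rose and 2 fell, and with the pair as a block 3 fell. Both that fell encode subunits of the endonuclease. Tsen34, a catalytic subunit, had 3.54, 5.59, 3.67 and 8.84 CPM in space and 59.2, 54.3, 65.3 and 57.6 CPM on the ground, a log2 fold change of -3.45 ± 0.34 (adjusted p = 0.000233), and 26.1% of its 50-nt stretches occur elsewhere. Tsen54, a structural subunit, had 11.2, 13.2, 14 and 17.7 CPM in space and 41.7, 78.3, 59.4 and 64.4 CPM on the ground, a log2 fold change of -2.12 ± 0.26 (adjusted p = 0.000865). The groups overlapped in neither gene, and both calls held in each setting.

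Ubiquitin-conjugating E2 enzymes, which carry ubiquitin from the activating enzyme to the ligases, had 8 falls among 33 genes tested (24.2%) and 0 rises, against 5.13% and 1.19% of all genes, and with the GC correction 8 falls and 2 rises. All 8 kept their calls with each library left out and with the GC correction, 15 of the 33 were lower in all 4 pairs (17% of all genes were), and the median was -0.37, or -0.15 with the GC correction. Ube2d2a, a broadly used E2 of this family, had 28.9, 41.4, 41.3 and 40.5 CPM in space and 286, 279, 253 and 245 CPM on the ground, a log2 fold change of -2.81 ± 0.19 (adjusted p = 5.4e-05). Ube2s, which extends ubiquitin chains for the anaphase-promoting complex, stood at 21.8, 21.4, 41.2 and 38 CPM in space and 561, 734, 395 and 558 CPM on the ground, a log2 fold change of -4.20 ± 0.32 (adjusted p = 7.06e-05). Of the 50-nt stretches of these genes, 53.6% and 97.3% occur elsewhere in the genome, so their reads could have been shared with copies. Ube2g1, an E2 of protein quality control, changed by -2.57 ± 0.33 (adjusted p = 0.00108), and Ube2v2, the partner that directs chains used in damage tolerance, by -1.94 ± 0.25 (adjusted p = 0.00104), with 34.7% of its stretches elsewhere. Of 46 proteasome subunit genes, 0 rose and 1, Psmd3 (-1.63 ± 0.27, adjusted p = 0.00545), fell, and 2 fell with the GC correction.

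The shares of 1.19% that rose and 5.13% that fell over all genes are the background for the quasi-likelihood counts of the stress response lists. Of 35 heat shock genes, 0 rose and 2 fell (3 with the block, and 1 and 3 with the GC correction). Hspb1, a small heat shock protein that binds actin, had 6.64, 13.1, 19.2 and 23.1 CPM in space and 134, 213, 219 and 260.03 CPM on the ground, a log2 fold change of -3.74 ± 0.40 (adjusted p = 0.000384), and 55.6% of its 50-nt stretches occur elsewhere. Dnaja2, a co-chaperone of Hsp70, changed by -1.07 ± 0.20 (adjusted p = 0.0107). Of 40 genes of the unfolded protein and integrated stress responses, 2 rose and 2 fell (2 and 4 with the block). Neither rise kept its call with each library left out. Xbp1, the transcription factor that the sensor Ire1 activates by splicing, had 7.04, 27.9, 28.6 and 46.2 CPM in space and 110.2, 119, 248 and 272 CPM on the ground. The R9del libraries were above the R9wt libraries on the ground, the groups did not overlap, and the log2 fold change was -2.77 ± 0.54 (adjusted p = 0.0131). Of 51 lysosomal genes, 1 rose and 2 fell (3 fell with the block and 1 with the GC correction). In all 4 pairs 15 of the 51 were higher, against 16.4% of all genes, and the median was 0.50. Among those that fell was the calcium channel gene Mcoln1 (-1.98 ± 0.38, adjusted p = 0.0129). Of 39 antioxidant enzyme genes, 0 rose and 1 fell, Glrx5, a glutaredoxin that carries iron-sulphur clusters in mitochondria, with 3.68, 2.44, 1.93 and 3.17 CPM in space and 18.3, 71.1, 9.8 and 37.3 CPM on the ground (-3.61 ± 0.59, adjusted p = 0.00515). Iscu, the scaffold on which such clusters are built, also fell, from 60.7, 60.4, 54.3 and 49.7 CPM on the ground to 5.75, 3.23, 4.39 and 4.62 CPM in space, a log2 fold change of -3.65 ± 0.25 (adjusted p = 5.45e-05). Of its 50-nt stretches, 23.2% occur elsewhere. In 4 further lists the GC correction changed the counts by over 1.5 times. Of 25 Nrf2 pathway and target genes 0 rose and 3 fell, but 1 rose and 1 fell both with the block and with the GC correction. Of 22 metallothionein, zinc and iron genes 1 rose and 3 fell (0 and 2 with the block, 2 and 1 with the GC correction), and of 27 cholesterol synthesis genes 0 rose and 2 fell (0 and 2 with the block, 2 and 0 with the GC correction). Of 12 RNA polymerase II subunit genes 1 rose and 0 fell, also with the block, and 0 passed with the GC correction.

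Nuclear genes of the respiratory chain fell in a few members, all but 1 of them in complexes III and IV or in the carrier between them. Of 37 complex I genes 0 rose and 1 fell, and of 41 genes of complexes II to V 0 rose and 5 fell, with medians of -0.23 and -0.27, against 1.19% that rose and 5.13% that fell of all genes. Uqcrfs1, the iron-sulphur protein of complex III, had 16, 17.2, 18.7 and 19.9 CPM in space and 373, 348, 241 and 239 CPM on the ground. The space libraries lay within a narrow range far below the ground libraries, and the log2 fold change was -4.06 ± 0.23 (adjusted p = 2.66e-05). Cyc1, the cytochrome of the same complex, had 52.7, 51.9, 67.3 and 107 CPM in space and 676, 606, 559.7 and 501 CPM on the ground, a log2 fold change of -3.07 ± 0.28 (adjusted p = 0.000151). Cytochrome c itself (Cycs) changed by -1.27 ± 0.26 (adjusted p = 0.018) and lost its call without Space R9wt D5 (adjusted p = 0.0628), with 33.3% of its stretches elsewhere, and Ndufab1, the acyl carrier subunit of complex I, changed by -1.70 ± 0.29 (adjusted p = 0.00571). These medians were -0.36 and -0.41 with the GC correction, and -0.43 at the lowest for complexes II to V with a library left out. In the R9del D5 pair the medians of both lists were above 0 (0.22 and 0.25), and in the other 3 pairs they were below 0.

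Among the 13 protein genes of the mitochondrial genome, 0 rose, 2 fell, 7 were lower in all 4 pairs and the median was -0.76, or -0.34 with the GC correction. Of all genes 5.13% fell, 1.19% rose and 17% were lower in all 4 pairs. With the pair as a block 6 of the 13 fell, against 1 with the GC correction. With single libraries left out 0 to 6 fell, and the median lay between -1.12 and -0.66. mt-Nd2, a complex I subunit, had 85.2, 61.8, 207 and 135 CPM in space and 1323, 202, 1139 and 686 CPM on the ground, a log2 fold change of -2.78 ± 0.57 (adjusted p = 0.018). The R9wt D5 ground library stood well below the other 3 and just under the highest space library, so the groups overlapped, and the call ended without Space R9del D5, Space R9wt D5, Space R9wt D1 or Ground R9wt D1 (up to 0.0569). mt-Nd6, the complex I subunit encoded on the other strand, changed by -2.17 ± 0.45 (adjusted p = 0.0176) and lost its call without Space R9del D5 or Space R9wt D5 (up to 0.0595) and with the GC correction (adjusted p = 0.051). mt-Co1 had 8199, 6964, 8059 and 7619.6 CPM in space and 9706, 7856, 12021 and 8896 CPM on the ground and a log2 fold change of -0.32 ± 0.19 (adjusted p = 0.431), and 51.1% of its 50-nt stretches occur elsewhere. The 13 genes took 1.08 to 1.77% of the counts in space and 1.13 to 3.30% on the ground, and these ranges overlapped. Each space share (1.29, 1.08, 1.77 and 1.42%) was nevertheless below that of its matched ground library (2.33, 1.13, 3.30 and 2.41%), though by little in R9wt D5. Of 29 glycolysis and pentose phosphate genes, 1 (Slc2a3) rose and 1, Pgls, which acts in the pentose phosphate pathway, fell, from 41.1, 45.2, 37.9 and 51.1 CPM on the ground to 6.45, 4.54, 4.002 and 4.45 CPM in space (-3.17 ± 0.25, adjusted p = 7.98e-05). The glycolytic enzyme gene Pkm had 6493, 5891, 5384 and 5961 CPM in space and 6420.5, 2449.97, 4051 and 4766 CPM on the ground, where R9wt D5 was low, and a log2 fold change of 0.42 ± 0.27 (adjusted p = 0.468), with 40.2% of its 50-nt stretches elsewhere. Of 29 hypoxia response genes, which the study also named on these samples, 1 rose and 1 fell, neither kept its call with each library left out, and with the pair as a block 4 rose and 2 fell, and with the GC correction 2 rose and 0 fell. Apoe, the lipid carrier, was the 1 gene of 23 in the lipid handling list that passed (with the block 2 others rose). It fell from 1579, 2807, 1741 and 1078 CPM on the ground to 165, 148, 69.8 and 168 CPM in space, a log2 fold change of -3.71 ± 0.39 (adjusted p = 0.000323), and no space library came near the ground range.

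Most histone H2A genes tested fell, by far more than the median fall of 2.14 over all genes that fell. Replication-dependent histone genes are transcribed in S phase into RNAs that mostly lack a poly(A) tail. Most variant histone genes outside the clusters are also transcribed outside S phase. The libraries were mRNA libraries, and the share of RNAs without a tail that they captured was not tested. Of 45 replication-dependent genes tested (59 were found), 0 rose and 12 fell, where 1.19% and 5.13% of all genes did, and these were 10 H2A genes and 2 H3 genes. The 18 H2A genes found summed to 3.10, 2.88, 6.45 and 5.89 CPM in space and to 319, 102, 215 and 161 CPM on the ground. Of the 14 H2A genes tested 10 fell, with a median log2 fold change of -5.62. The 16 H2B genes found, many of them divergent neighbours of H2A genes, summed to 18.9, 20.2, 41.1 and 29.4 CPM in space and to 27.1, 17.04, 38.6 and 24.1 CPM on the ground. These overlapped, 0 of the 13 tested passed, and the median was -0.05. The space sums of the 7 H3 genes found (1.55, 0.461, 2.84 and 1.42 CPM) were lower than the matched ground sums (4.64, 2.62, 14.8 and 10.7 CPM) in every pair, although the groups overlapped, and 2 of the 5 tested fell. Of the H1 and H4 genes, 6 and 7 were tested and 0 passed. H2ac22 had 0.122, 0.165, 0.257 and 0.274 CPM in space and 49.99, 15.4, 29.1 and 25.3 CPM on the ground, a log2 fold change of -7.18 ± 0.52 (adjusted p = 6.26e-05), and H2ac10, H2ac12 and H2ac7 changed by -7.11 ± 0.54, -6.98 ± 0.54 and -7.06 ± 0.57. H2bc4 had 4.27, 9.08, 17.1 and 13.6 CPM in space and 10.8, 3.95, 16.4 and 11.3 CPM on the ground, which is a log2 fold change of 0.05 ± 0.50 (adjusted p = 0.973). These 4 H2A genes share 67 to 85.8% of their 50-nt stretches with other places in the genome, and H2bc4 50.8%, so the values of single copies are uncertain and the sum over the class is the safer measure. The most GC-rich coding stretches of an H2A gene that fell and of an H2B gene that did not pass are shown with the capitals as above.
H2ac22 (fell; chr13:21878938-21879037, minus strand): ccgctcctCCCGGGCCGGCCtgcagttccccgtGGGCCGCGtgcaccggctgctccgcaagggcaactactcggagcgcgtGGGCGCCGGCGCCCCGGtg
H2bc4 (did not pass; chr13:23776358-23776457, plus strand): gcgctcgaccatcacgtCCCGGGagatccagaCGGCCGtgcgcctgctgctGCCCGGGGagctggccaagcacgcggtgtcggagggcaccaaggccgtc
Their GC contents were 79% and 73%, and the median GC content of the richest 200-nt window was 74.8% over the H2A genes and 66.5% over the H2B genes. Base composition therefore moved with the class that fell, and of all genes under 1500 nt with a window of 70 to 80% GC, 30.6% fell. With the GC correction, which had no term for exon length, all 12 kept their calls, and 10 did with each library left out.

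**Figure D4:**
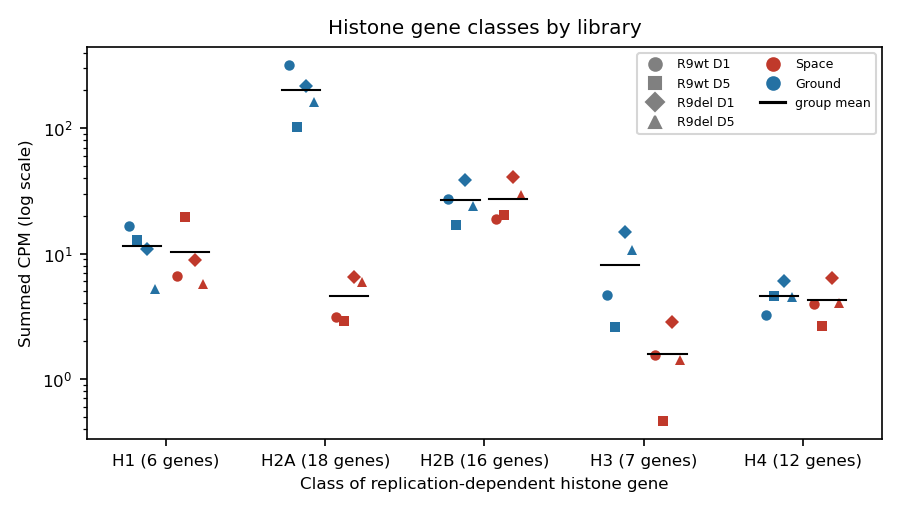
Summed level in CPM (log axis) of the replication-dependent histone genes of each class, with 1 point per library, blue for ground and red for space, shapes for genotype and duration, and a bar at each group's mean. The H2A sums lie between 2.88 and 6.45 CPM in space and between 102 and 319 CPM on the ground, whereas the H1, H2B, H3 and H4 sums of the groups overlap, those of H3 being lower in space in each pair.

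Of the 10 variant histone genes tested, 0 rose and 4 fell, 7 were lower in all 4 pairs, where of all genes 1.19%, 5.13% and 17% were. The median was -1.05, or -0.66 with the GC correction. H2ax, whose protein is phosphorylated around DNA breaks, had 14.5, 32.1, 23.4 and 31.2 CPM in space and 743, 374, 369.6 and 359.6 CPM on the ground. The R9wt D1 ground library was the highest and the R9wt D1 space library the lowest, and the log2 fold change was -4.19 ± 0.37 (adjusted p = 0.000132). Macroh2a2 changed by -2.28 ± 0.28 (adjusted p = 0.000894), H2aj by -2.25 ± 0.44 (adjusted p = 0.0133) and H2az2 by -1.28 ± 0.24 (adjusted p = 0.0115). These 4 encode H2A variants, and they kept their calls in each setting.

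DNA damage genes were a main question of the study, and the p53 response showed 1 rise and 5 falls among 35 genes (2 and 7 with the block), against 1.19% and 5.13% of all genes. Phlda3, an inhibitor of Akt, had 8.82, 13.6, 22 and 26.7 CPM in space and 139.9, 375, 308 and 372 CPM on the ground, a log2 fold change of -4.07 ± 0.44 (adjusted p = 0.000411). The R9wt D1 libraries were the lowest in each place, and the groups did not overlap. Gadd45a, a growth arrest gene, had 2.58, 6.3, 7.2 and 6.56 CPM in space and 46.5, 57.5, 39.9 and 44.2 CPM on the ground, a log2 fold change of -3.05 ± 0.35 (adjusted p = 0.000502). Bbc3, which encodes the cell death effector Puma, had 33.4, 13.2, 26.2 and 21.4 CPM in space and 80.7, 246, 54.2 and 159 CPM on the ground, a log2 fold change of -2.52 ± 0.48 (adjusted p = 0.0121). The D5 ground libraries were its highest, and the D5 space libraries its lowest. Tnfrsf10b, the p53 target that rose, had 129, 83.8, 67.7 and 107 CPM in space and 33.5, 41.5, 40.8 and 32.3 CPM on the ground, and 31.8% of its 50-nt stretches occur elsewhere. Mdm2, the ubiquitin ligase that p53 induces and that destroys it, had 353, 432, 803 and 491 CPM in space and 113, 421, 339 and 337 CPM on the ground, higher in space in each pair with a log2 fold change of 0.78 ± 0.39 (adjusted p = 0.329). The median of the list was 0.09, between -0.03 and 0.29 with single libraries left out. In all 4 pairs 7 members were higher and 8 lower, where 16.4% and 17% of all genes were.

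Of 20 break sensing and end joining genes, 0 rose and 2 fell, H2ax and Nbn, a subunit of the complex that senses broken ends. Nbn had 21.8, 20.9, 19.95 and 17.9 CPM in space and 57, 41.4, 61.5 and 63.9 CPM on the ground, a log2 fold change of -1.47 ± 0.21 (adjusted p = 0.0024), and its groups did not overlap. Under the block 3 fell. Of 35 homologous recombination and Fanconi genes, 0 rose and 1 fell. This was Fance, a subunit of the Fanconi core complex, which changed by -2.40 ± 0.26 (adjusted p = 0.000422). In all 4 pairs 12 of the 35 were higher, against 16.4% of all genes, and the median was 0.33. With the block 1 rose and 1 fell. Of 27 nucleotide excision repair genes, 1 rose and 2 fell. Rad23b, a partner of the damage sensor Xpc, had 78.3, 84.7, 91 and 87.9 CPM in space and 511, 332, 398 and 408 CPM on the ground, a log2 fold change of -2.27 ± 0.19 (adjusted p = 0.000101). Of 31 base excision and mismatch repair genes, 0 rose and 2 fell. Ung, which removes uracil from DNA, changed by -1.85 ± 0.21 (adjusted p = 0.000588), and Tdp2, which frees topoisomerase from DNA ends, had 23.6, 18, 21.6 and 16.6 CPM in space and 105, 114, 88.6 and 87.5 CPM on the ground (-2.31 ± 0.21, adjusted p = 0.000151). Of the 20 genes of the Rad9 clamp and the checkpoint kinases, 0 rose and 1 fell, and that call ended with single libraries left out. Nbn, Fance, Rad23b, Ung and Tdp2 kept their calls in each setting. Over all genes tested 1.19% rose and 5.13% fell, and nothing is read from counts as small as those of these lists. After the GC correction 2 recombination and Fanconi genes fell, 0 nucleotide excision repair genes rose and 1 fell, and 0 clamp and checkpoint genes passed.

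Of 51 DNA replication genes tested, 1 rose and 4 fell, near the 1.19% and 5.13% of all genes. In all 4 pairs 17 were higher and 9 lower, where 16.4% and 17% of all genes were, and with the pair as a block 4 rose and 5 fell. Mcm4, a subunit of the replicative helicase, had 476, 416, 469 and 382 CPM in space and 277, 201, 203 and 193 CPM on the ground. Every space library was higher, the log2 fold change was 0.996 ± 0.19 (adjusted p = 0.0113), and the call ended without Ground R9del D5 (adjusted p = 0.0524). Of the 4 that fell, the 3 with the smallest adjusted p are named, and no shared function is read from them. Cdt1, which loads the helicase, had 35.1, 23.9, 41.9 and 29.9 CPM in space and 137, 102, 184 and 137 CPM on the ground, a log2 fold change of -2.10 ± 0.25 (adjusted p = 0.000755), Dbf4, the activator of the kinase that fires origins, changed by -1.39 ± 0.21 (adjusted p = 0.0028), and Orc4, a subunit of the origin recognition complex, by -1.05 ± 0.20 (adjusted p = 0.0125). Of 35 cyclin, Cdk and inhibitor genes, 0 rose and 5 fell, 14 were lower in all 4 pairs, with the block 1 rose and 7 fell, and with the GC correction 0 rose and 3 fell. Ccna2, the cyclin of S and G2 phase, had 50.2, 47.9, 69.9 and 51.4 CPM in space and 286, 167, 269 and 218 CPM on the ground, a log2 fold change of -2.10 ± 0.23 (adjusted p = 0.000434). Ccnb1, the mitotic cyclin, had 764, 526, 785 and 695 CPM in space and 558, 411, 595 and 525 CPM on the ground, higher in space in each pair with a log2 fold change of 0.41 ± 0.20 (adjusted p = 0.319), and 30.8% of its 50-nt stretches occur elsewhere. The transcription factor genes E2f4 and E2f6 changed by -2.32 ± 0.27 (adjusted p = 0.000641) and -1.71 ± 0.25 (adjusted p = 0.00265). Of 41 anaphase-promoting complex and spindle checkpoint genes, 3 rose and 4 fell. Fzr1, the activator that the complex uses after mitosis, had 21.3, 27, 42.9 and 30.1 CPM in space and 178, 160.3, 262 and 245 CPM on the ground, a log2 fold change of -2.80 ± 0.28 (adjusted p = 0.000259), and Cdc16, a subunit of the complex, changed by -1.68 ± 0.17 (adjusted p = 0.000304). None of the 3 that rose kept its call with each library left out, whereas 3 of the 4 that fell did, and with the GC correction 1 of the list rose and 3 fell.

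Over the 68 gene lists examined, 53 held at least 1 gene that fell and 16 at least 1 that rose, and 47 held more that fell than rose against 4 the other way. With the GC correction these were 37 and 9, and with the pair as a block 46 and 11. In the 12 lists in which edgeR's quasi-likelihood test called 0 of 164 genes, 24 were at an unadjusted p under 0.05, 10 passed DESeq2's Wald test, 6 passed edgeR's exact test and 10 passed with the pair as a block. Over all 20473 genes the Wald test called 805 higher and 1578 lower, the exact test 456 and 1341, and the block 443 and 1335. Among wider marker lists of other cell types, 0 of 9 fibroblast and feeder genes passed, 1 of 9 blood genes fell, 1 of 9 endothelial genes (Pecam1) rose and 1 of 12 muscle genes fell. The blood gene was Spi1, the myeloid factor PU.1, with 0.228, 0.0987, 0.0715 and 0 CPM in space and 1.79, 6.42, 3.13 and 2.12 CPM on the ground and a log2 fold change of -5.05 ± 0.92 (adjusted p = 0.00939). The 9 blood genes had a median of -0.55 (-1.25 to -0.22 with single libraries left out), with 2 higher and 2 lower in all 4 pairs. Of all genes 1.19% rose and 5.13% fell, and 16.4% were higher and 17% lower in all 4 pairs. Gata1 of the wider blood list and the blood marker Cd3e had counts in every library, and what part blood cells had in the Spi1 values was not tested. Of 16 MHC and antigen presentation genes 0 passed in edgeR's test and 0 with the pair as a block, and 1 was at an unadjusted p under 0.05.

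**Figure D5:**
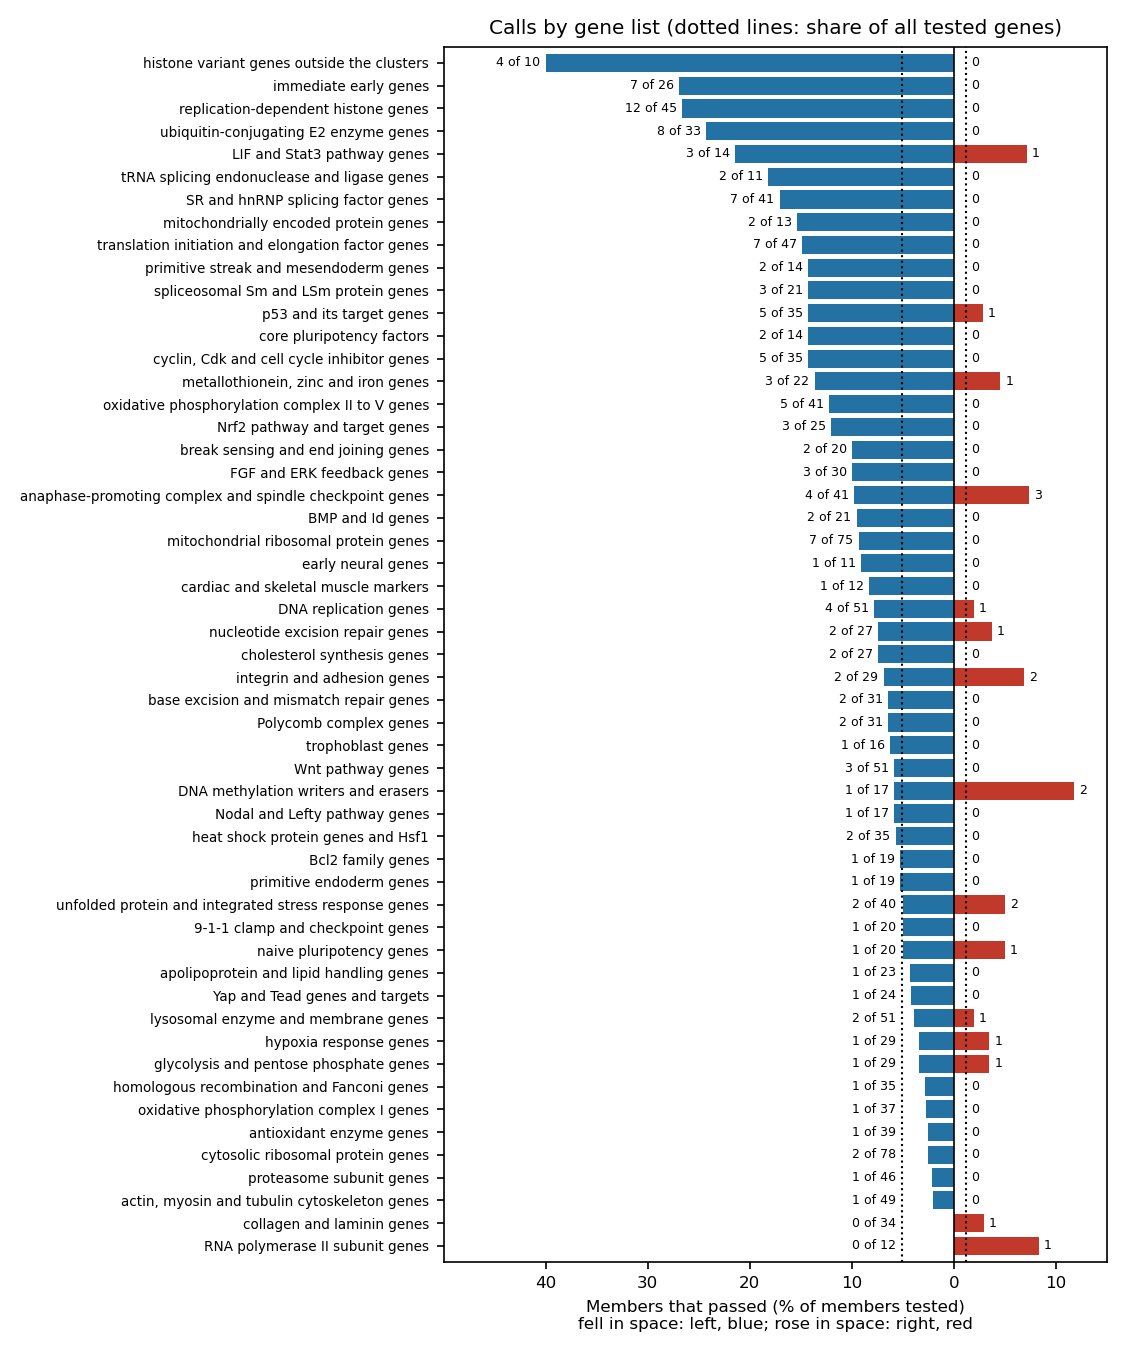
Share of each list's tested members that fell (blue, left) or rose (red, right) in space, in percent, for lists with at least 10 members tested and at least 1 that passed, with the number that fell of those tested at the left and the number that rose at the right. Dotted lines mark the shares over all genes tested, 5.13% and 1.19%, and variant histone genes (4 of 10), immediate early genes (7 of 26) and replication-dependent histone genes (12 of 45) lie farthest from them.

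The interaction of location with duration passed for 0 of 20473 genes in edgeR's quasi-likelihood test, with 1391 (6.79%) at an unadjusted p under 0.05, and the interaction with genotype passed for 0, with 620 (3.03%). DESeq2's Wald test called 83 and 23 such genes, and edgeR's test with each library left out called 0 to 3 and 0 to 1. The spread of log2 ratios over all genes was 1.30 and 1.42 (SD) in the R9wt D1 and D5 pairs and 1.06 and 1.11 in the R9del D1 and D5 pairs, with pair medians between -0.02 and 0.03.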

How the data were processed

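Per the labels and the study's methods, the authors prepared Illumina mRNA libraries from TRIzol RNA, sequenced paired ends and aligned them to mm9 with TopHat2 2.0.9. They deposited 1 table of raw read counts for 50686 Ensembl genes, without normalization or filtering. The counting program, annotation and strand handling are not given in the sources used here. All 8 columns were mapped by title, and every entry names a gene. Symbols, exons and GC content came from an mm9 annotation holding 64.6% of the identifiers and 97.1% of the counts.

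Genes passing edgeR's filterByExpr (minimum count 10) were tested with edgeR 4.0.16's quasi-likelihood test (R 4.3.3), TMM factors, location as the only term and Benjamini-Hochberg adjustment. Log2 CPM and pair ratios used a prior count of 2. The interaction models added the other factor as a covariate. Alternatives were DESeq2 1.42.0, edgeR's exact test, other scalings, no filter, matched pairs as a block, a spline of counts on the richest 200-nt GC window, and each library left out. The block follows the matched design. Libraries of the same genotype and duration deviated together, with correlations of 0.28 to 0.61, but those of the same genotype and the other duration also did (0.29, 0.28, 0.30 and 0.12), so these correlations do not separate the pair from the genotype.

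The members and the gene lists were chosen with earlier results of these data known. The text names the 12 largest rises and falls (mean log2 CPM of at least 3, same direction in 4 pairs), up to 4 members of each list that passed and up to 2 that did not, the markers and Rad9a. Most members that lost their call with several libraries left out are given within counts alone. 1 list member that passed is not reported here.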

Additional observations from a re-analysis of the deposited data

Results flagged for a closer look

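In 11 of the 250 groups of 4 libraries checked, over the genes named above, 1 library stood apart from the other 3 by Dixon's criterion on log2 CPM, and chance alone gives about 5%. R9wt D1 in space was apart for Abl2 (69.4 CPM, the highest), Rnd3 (24.1 CPM), Ube2d2a (28.9 CPM) and Gadd45a (2.58 CPM), the last 3 being the lowest of their groups. On the ground, R9wt D1 was apart for Egr4 (0.456 CPM) and Mdm2 (113 CPM) as the lowest, and for H2ax (743 CPM) and Mcm4 (277 CPM) as the highest. R9wt D5 on the ground was the highest for Ttc17 (32.2 CPM) and Slc1a1 (34.4 CPM), and R9del D1 in space was the lowest for Apoe (69.8 CPM). No named gene had an interaction of location with duration or genotype that passed.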

How the results depend on the processing

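The count of genes higher in space depended on the setting more than the count of genes lower. Against 243 higher, there were 104 without a filter on low counts (35478 genes), 805 with DESeq2's Wald test, 456 with edgeR's exact test, 443 with the matched pairs as a block, 369 with the GC correction (17505 genes), 713 with the block and the GC correction together, 119 with a fold of at least 2 added, and 595 with an unadjusted p under 0.05 and that fold. Leaving out each library in turn gave 50 to 184, the lowest without Ground R9del D5. Against 1051 lower, DESeq2's Wald test gave 1578 and the unadjusted p with a fold of at least 2 gave 1632, while leaving out a library gave 776 to 1046. The GC correction gave 729 lower (17505 genes), and the block and the GC correction together gave 986 lower against the 713 higher. Among the 9733 genes that averaged 10 CPM or more, 2052 were higher and 2024 lower in all 4 pairs, against 3362 and 3481 of all genes. With the GC correction 3492 were higher and 2689 lower (17505 genes). Scaling by DESeq2 size factors gave 3546 and 3381, and by library size alone 3603 and 3315. For the interaction with duration, DESeq2's Wald test gave 83 genes and leaving out a library 0 to 3, and for the interaction with genotype these were 23 and 0 to 1.

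Signs changed for 3 genes that did not pass. mt-Co1 went from -0.32 to 0.055 with the GC correction, H2bc4 from 0.05 to -0.074 with it and to between -0.26 and 0.31 with single libraries left out, and Rad9a from -0.11 to between -0.55 and 0.19. Causes were not tested. Over all genes, 31 of the 243 that rose and 680 of the 1051 that fell kept their call with each library left out. The named genes are a chosen part of these. Of 112 named genes that passed, 92 kept their call in each setting run on single genes, and 6 lost it with the GC correction. The block ended none of their calls, and among named genes that had not passed it gave a call to Utf1, Lamb1 and Fn1 and to no other. DESeq2's Wald test changed the result of 2 of the 13 named genes that had not passed.

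The limits are those of 1 culture per condition, 1 flight, and RNA and library steps whose grouping by location is not given in the sources used here. Falls below 0.0311 to 0.0515 CPM, depending on the library, were not detectable at these depths. Calls on genes that share sequence with copies or overlap other genes are uncertain.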
